A study of Mus musculus with 16 samples.

Results

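Arecoline, the main alkaloid of the areca nut, and nicotine, the alkaloid of tobacco, both act on receptors for acetylcholine, and their effects on the mouse nucleus accumbens were compared here gene by gene. The comparison was defined by the sample labels. It took the 4 arecoline and 4 nicotine libraries, which are 8 of the 16 libraries of the study, and covered the 14674 genes of 22337 that had enough counts to test. All mice were C57BL/6 males with no altered allele named, and RNA came from the nucleus accumbens after 4 days of exposure. The other groups received saline (4 libraries), shown here as the shared control, or caffeine (4 libraries), which entered the estimate of the spread. The sources used here give no dose, route, age or time between the last exposure and dissection, so the compounds cannot be set against each other at a matched dose. Whether each library stands for its own mouse is not stated, and p-values therefore refer to the scatter of these libraries, which may be technical.

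Acetylcholine acts through nicotinic receptors, which are ligand-gated cation channels built from several subunits, and through muscarinic receptors, which couple to G proteins. Nicotine opens the channels, and arecoline mainly activates the muscarinic receptors. In the nucleus accumbens, acetylcholine comes largely from sparse cholinergic interneurons and shapes dopamine release and the output of the medium spiny neurons, the GABAergic projection cells that make up most of the region.

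Estimated counts per library totalled 14.77 to 19.02 M with arecoline and 9.038 to 16.5 M with nicotine, and mitochondrial genes took 4.09 ± 0.474% and 4.72 ± 0.539% of them (SD, n = 4 each). Libraries differed within each group before any comparison was made. The first principal component of the 8 libraries (29.2% of the variance) set nicotine replicate 2 apart, and genes of olfactory epithelium lay at its end. The second (25.2%) set arecoline replicates 2 and 3 apart, with striatal genes such as Adora2a and Isl1 at their end. Drd1, a dopamine receptor that marks direct-pathway neurons, was at 9.66, 194, 289 and 13.7 CPM (counts scaled to 1e+06 per library after TMM) in arecoline replicates 1 to 4 and between 14.3 and 27.7 CPM with nicotine. The tissue label was therefore met by high levels of medium spiny neuron genes in 2 arecoline libraries and by low ones in the other 6. Saline libraries held 78.2, 71.9, 306 and 82.5 CPM of Drd1, all above every nicotine library and above arecoline replicates 1 and 4. In bulk tissue, fewer cells of a type and less RNA per cell cannot be told apart.

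Arecoline and nicotine differed at 13 genes. Dlx5, a homeobox transcription factor of GABAergic neurons, Scg2, the secretory granule protein secretogranin II, and Hs3st5, an enzyme that sulfates heparan sulfate, were higher with arecoline. Clcn2, the ClC-2 chloride channel, Lats2, a kinase of the Hippo pathway, Adcy9, a membrane adenylyl cyclase, and 7 further genes were lower with arecoline. The folds ran from 1.54 to 4.27, and all 13 genes passed with no overlap between the 4 arecoline and the 4 nicotine libraries. The 3 higher genes made up 0.0204% and the 10 lower genes 0.0681% of the genes tested, or 0.0886% together (edgeR quasi-likelihood test, Benjamini-Hochberg adjusted p under 0.05 over all genes). Every gene of the 13 reached a fold of 1.5, and 4 reached a fold of 2. Without adjustment, 1169 genes were higher and 1501 lower at p under 0.05, which is 18.2% of those tested. The libraries of the groups did not overlap for 577 genes that were higher (3.93%) and 739 that were lower with arecoline (5.04%), or 8.97% in either direction.

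**Figure D1:**
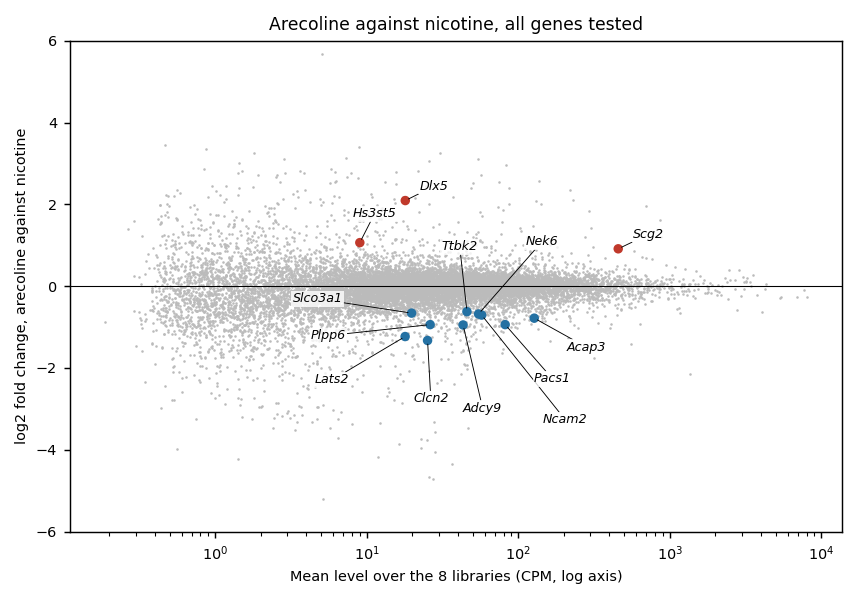
Each point is a gene, with its mean level over the 8 libraries in CPM on a log axis and the log2 fold change of arecoline against nicotine on the vertical axis. Red and blue points are the 3 higher and 10 lower genes past the threshold, which are spread over the levels and are not those with the largest fold changes; 1 gene lies beyond the axis limit of 6.

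The number of genes called depended strongly on which libraries and which model were used, and Dlx5 was the gene that passed in all 27 alternatives tried. Only 2 genes, Dlx5 and Clcn2, passed without arecoline replicate 1, without arecoline replicate 3, without nicotine replicate 2, without nicotine replicate 3 or without caffeine replicate 2. Only 6 passed without nicotine replicate 1 or without caffeine replicate 4. Conversely, 298 passed without arecoline replicate 2, 253 without saline replicate 3, 72 without nicotine replicate 4 and 30 without saline replicate 4. Without the 4 libraries that stood apart in striatal or olfactory genes (arecoline replicates 2 and 3, nicotine replicate 2 and saline replicate 3), 130 genes were higher and 152 lower, and the 13 genes were among them. With the mean level of the medium spiny neuron genes as a covariate, 51 were higher and 66 lower, again with the 13 among them. With only the 8 libraries of these groups in the fit, 3 genes passed and 1 of the 13 was among them. DESeq2 on the same counts called 219 higher and 387 lower of 14455 genes tested. Its counts in the gene lists below stand beside those totals. Counts there at an unadjusted p under 0.05 in edgeR stand beside 18.2% of all genes tested.

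Dlx5 (mm10 chromosome 6, 6877805 to 6882085, minus strand) had the largest fold of the 13. Its levels were 32.1, 27.9, 35.9 and 20.7 CPM in the arecoline libraries and 7.61, 6.42, 6.19 and 7.06 CPM in the nicotine libraries. The lowest arecoline library was thus well above the highest nicotine library, and the nicotine libraries lay close together. The log2 fold change was 2.09 ± 0.23 (SE; edgeR, adjusted p = 0.00127), and it ranged from 1.89 to 2.23 over the alternatives. In the saline libraries Dlx5 stood at 11.3, 10.9, 21.5 and 10.7 CPM. Saline replicate 3, which is rich in striatal genes, was above the lowest arecoline library, and all 4 saline libraries were above the nicotine libraries. Against those shared saline libraries the log2 fold change was 1.10 with arecoline (adjusted p = 0.064) and -0.99 with nicotine (adjusted p = 0.16), so neither compound passed alone.

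Scg2 (chromosome 1, 79434669 to 79440120, minus strand) was the most abundant of the 13 genes in CPM. It encodes a protein of dense-core vesicles that is cut into the neuropeptide secretoneurin. The arecoline libraries held 516, 632, 734 and 508 CPM and the nicotine libraries 353, 256, 278 and 381 CPM, which is 0.91 ± 0.16 on the log2 scale (SE; edgeR, adjusted p = 0.0433). Arecoline replicates 2 and 3, the libraries rich in striatal genes, were the highest, yet replicates 1 and 4 also exceeded every nicotine library. Hs3st5 (chromosome 10, 36506814 to 36834397, plus strand) stood at 12.4, 9.78, 13.97 and 12.5 CPM with arecoline and at 6.78, 6.75, 5.26 and 4.57 CPM with nicotine. Its log2 fold change was 1.06 ± 0.19 (SE; edgeR, adjusted p = 0.037), and all 4 arecoline libraries were above the highest nicotine library. Both genes were near the threshold and did not pass in 12 (Scg2) and 11 (Hs3st5) of the alternatives, among them those without arecoline replicate 1 or 3.

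Clcn2 (chromosome 16, 20702964 to 20717746, minus strand), a chloride channel of neurons and glia, showed the largest difference of the 10 lower genes. It stood at 14.2, 18.2, 10.1 and 14.9 CPM with arecoline and at 33.6, 40.6, 39.2 and 31.0 CPM with nicotine. Every nicotine library was above every arecoline library, and the log2 fold change was -1.33 ± 0.17 (SE; edgeR, adjusted p = 0.00539). Saline libraries ran from 21.9 to 32.3 CPM, above all arecoline libraries, and the difference from saline was -0.98 with arecoline (adjusted p = 0.061) and 0.34 with nicotine (adjusted p = 0.43). Clcn2 passed in 25 of the 27 alternatives. Fam131a and Polr2h overlap it on the opposite strand, and the sources used here do not say whether the counting used strand, so their reads cannot be told apart.

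Adcy9 (chromosome 16, 4287529 to 4420498, minus strand) makes cyclic AMP downstream of G protein-coupled receptors. Its levels were 24.5, 34.4, 28.3 and 30.9 CPM with arecoline and 48.3, 64.3, 64.2 and 51.3 CPM with nicotine, which is -0.95 ± 0.15 on the log2 scale (SE; edgeR, adjusted p = 0.0268). The groups were separated by a gap from 34.4 to 48.3 CPM. For Adcy9 the nicotine mean lay farther from saline than the arecoline mean did, with saline libraries between 30.0 and 42.9 CPM. The log2 fold change against saline was 0.64 with nicotine (adjusted p = 0.16) and -0.31 with arecoline (adjusted p = 0.32).

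Lats2 (chromosome 14, 57689662 to 57758388), which phosphorylates the Hippo effectors, stood at 9.20, 10.1, 10.5 and 12.96 CPM with arecoline and at 25.2, 34.4, 24.01 and 17.1 CPM with nicotine, a log2 fold change of -1.23 ± 0.20 (edgeR, adjusted p = 0.0301). Pacs1 (chromosome 19, 5133158 to 5273119), a sorting adaptor of the trans-Golgi network, was also lower with arecoline, at 49.4 to 67.4 CPM with arecoline and 95.1 to 119 CPM with nicotine. Nek6 (chromosome 2, 38511643 to 38594606), a mitotic kinase, stood at 36.7 to 46.8 CPM with arecoline and 62.1 to 71.5 CPM with nicotine. The groups did not overlap for any of these 3 genes, and the genes differ in where saline lies. Saline libraries of Pacs1 (80.9 to 120.1 CPM) covered the nicotine range, whereas those of Nek6 (36.5 to 52.6 CPM) covered the arecoline range. Psmb7 overlaps Nek6 on the opposite strand, and Gm49361 overlaps Lats2 on its own strand.

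The remaining 5 genes were lower with arecoline by 1.54-fold to 1.92-fold. Ncam2 (chromosome 16, 81200697 to 81626828), a neural cell adhesion molecule of axons, ran from 39.5 to 48.8 CPM with arecoline and from 64.2 to 82.0 CPM with nicotine. Ttbk2 (chromosome 2, 120732816 to 120850604), a tau-tubulin kinase needed for cilia, ran from 30.7 to 41.0 CPM and from 52.8 to 58.7 CPM. Saline libraries of both genes (58.8 to 76.1 and 46.2 to 55.3 CPM) were above every arecoline library. Acap3 (chromosome 4, 155891822 to 155907251), a regulator of the small GTPase Arf6, ran from 75.1 to 106 CPM with arecoline and from 153 to 181 CPM with nicotine. Slco3a1 (chromosome 7, 74275419 to 74554780), an organic anion transporter, ran from 14.3 to 16.6 CPM and from 21.2 to 27.3 CPM. Plpp6 (chromosome 19, 28963953 to 28966811), a lipid phosphatase, ran from 15.97 to 20.45 CPM and from 30.8 to 41.3 CPM. The adjusted p of these 5 genes lay between 0.0268 (Ncam2) and 0.037 (Plpp6 and Acap3) in edgeR. Of the 27 alternatives, Ncam2 passed in 18, Ttbk2 in 16, Acap3 in 14, and Plpp6 and Slco3a1 in 13 each. Gm7580 overlaps Slco3a1 and 4430402I18Rik overlaps Plpp6 on the opposite strand, and Cdan1 overlaps Ttbk2 on its own strand.

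**Figure D2:**
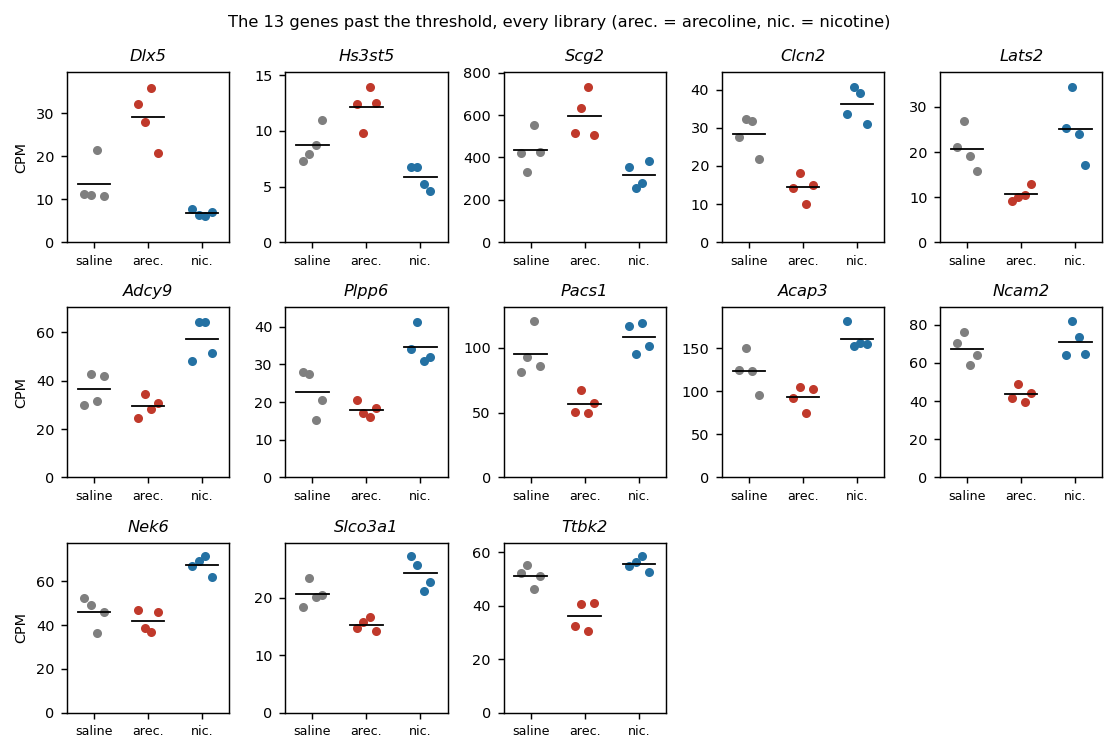
Levels in CPM of the 13 genes past the threshold, with 1 point per library for saline (grey), arecoline (red) and nicotine (blue), and a bar at each group mean. Arecoline and nicotine libraries do not overlap in any panel, and the saline mean lies between them in every panel.

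The saline mean lay between the arecoline and the nicotine mean for all 13 genes. Selection on the difference between the compounds favours that position, so nothing is read from it. On the log2 scale the arecoline mean was the farther from saline for 9 genes and the nicotine mean for 4. Both compounds were set against the same saline libraries, so these distances share their control.

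The promoters of the called genes are shown for 3 of those whose windows carried a match to a binding motif of an activity-regulated factor, to place the letters beside the values above. Windows run from 250 bases before to 50 bases after the transcription start and come from RefSeq (GRCm38.p6), which held 15 windows for 11 of the 13 genes. The motifs, searched on both strands, were the cyclic AMP response element TGACGTCA, the AP-1 site TGANTCA, the EGR site GCGNGGGCG and the homeodomain core TAATTA. Capitals mark the match.
Scg2, chr1:79439977-79440276, minus strand: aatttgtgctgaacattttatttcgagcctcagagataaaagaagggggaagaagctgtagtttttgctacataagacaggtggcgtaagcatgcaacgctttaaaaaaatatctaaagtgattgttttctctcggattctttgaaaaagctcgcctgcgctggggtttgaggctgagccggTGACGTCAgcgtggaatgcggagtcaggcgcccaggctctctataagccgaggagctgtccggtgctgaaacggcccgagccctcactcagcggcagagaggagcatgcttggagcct
Adcy9, chr16:4420449-4420748, minus strand: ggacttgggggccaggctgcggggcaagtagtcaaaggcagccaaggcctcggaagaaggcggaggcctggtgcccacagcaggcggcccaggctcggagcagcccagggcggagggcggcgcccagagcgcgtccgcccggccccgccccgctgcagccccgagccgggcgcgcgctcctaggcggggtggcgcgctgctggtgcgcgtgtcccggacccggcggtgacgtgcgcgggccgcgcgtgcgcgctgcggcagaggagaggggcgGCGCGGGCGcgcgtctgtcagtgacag
Ncam2, chr16:81200447-81200746, plus strand: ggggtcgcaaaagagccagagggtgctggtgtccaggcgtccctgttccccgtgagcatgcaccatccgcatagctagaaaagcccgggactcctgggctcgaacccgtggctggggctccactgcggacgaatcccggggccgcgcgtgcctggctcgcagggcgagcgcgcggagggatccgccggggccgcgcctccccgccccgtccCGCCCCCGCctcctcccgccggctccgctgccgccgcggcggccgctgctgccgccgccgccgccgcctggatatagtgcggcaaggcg

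The Scg2 window held the cyclic AMP response element at position -68 from the start, and it was the only called window with that motif, which occurs in 2.85% of the 14635 windows of tested genes. The EGR site was in 5 of the 15 windows, those of Adcy9 (+24), Ncam2 (-39), Acap3 (-67) and both overlapping windows of Nek6, which share the site. It occurs in 10.1% of the windows of tested genes. The Adcy9 and Ncam2 windows held 78.3% and 75.7% G and C, and that of Scg2 50.7%. No called window held the AP-1 site (5.21% of windows of tested genes) or TAATTA (2.82%). A match is a description of these letters, and no binding was measured.

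Below the threshold in the higher direction, the 7 genes with the next smallest p (edgeR, adjusted p = 0.0532 each) did not pass. Synpr, the vesicle protein synaptoporin, stood at 267, 111, 167 and 193 CPM with arecoline and at 73.8, 47.4, 70.4 and 72.1 CPM with nicotine, a log2 difference of 1.48 ± 0.29. Nrep, a protein of growing and regenerating neurons, stood at 176, 72.3, 107 and 114 CPM against 37.2, 31.2, 55.9 and 34.5 CPM. In both genes arecoline replicate 1 was the highest and replicate 2 the lowest of its group. H2afy2, the histone variant macroH2A2, stood at 40.6, 32.75, 39.0 and 38.7 CPM against 25.4, 29.1, 19.8 and 24.3 CPM. Rbm17, a splicing factor, stood at 56.7, 58.0, 68.1 and 53.9 CPM against 44.1, 44.0, 43.4 and 45.7 CPM, and saline libraries (42.7 to 46.8 CPM) lay at the nicotine level. Hmgb3, a chromatin protein, Hmgcll1, a lyase of hydroxymethylglutaryl-CoA, and Zar1, a maternal factor of the oocyte, had log2 differences of 0.64, 0.61 and 2.33. Zar1 rested on low levels, 1.40 to 2.52 CPM with arecoline and 0.186 to 0.471 CPM with nicotine.

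The receptors on which the compounds act did not pass the test. Of the 5 muscarinic receptor genes, 0 passed in edgeR and 3 had an unadjusted p under 0.05 (18.2% of all genes tested). DESeq2 called 1, Chrm2, higher (219 of 14455 over all genes). Chrm2, which encodes the M2 receptor that inhibits acetylcholine release, came nearest, at 19.5, 11.6, 9.78 and 27.0 CPM with arecoline and at 7.76, 7.17, 7.49 and 8.27 CPM with nicotine. All arecoline libraries were above all nicotine libraries, with a log2 difference of 1.14 ± 0.26 (SE; edgeR, adjusted p = 0.0634), but the lowest saline library (9.64 CPM) was about level with the lowest arecoline library. Arecoline replicates 1 and 4, with low striatal genes, were the highest for Chrm2. For Chrm4, the M4 receptor of direct-pathway medium spiny neurons, the order was the opposite, at 8.999, 20.4, 31.9 and 7.002 CPM with arecoline against 5.57 to 8.74 CPM with nicotine (log2 difference 1.26, adjusted p = 0.155). Chrm3 stood at 1.06 to 6.43 CPM with arecoline and 5.11 to 8.91 CPM with nicotine (log2 difference -1.08, adjusted p = 0.171).

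Chrm1, the main muscarinic receptor of forebrain principal neurons, was the receptor gene with the highest level per length, with 52.7 to 66.6 FPKM over the 8 libraries. On that scale, the authors' reads per kilobase and library total, Chrnb2, the main beta subunit of brain nicotinic receptors, had 11.5 to 17.6 FPKM and Chrna4, its usual alpha partner, 7.91 to 13.9 FPKM. Chrna7, which forms channels of its own, had 3.87 to 9.98 FPKM. Chrm4 had 3.91 to 22.0 FPKM and was above Chrnb2 in arecoline replicate 3 alone. The range of Chrm4 overlaps those of the 3 nicotinic subunits, so its place in the order is not set. Chrm1 itself was 225 to 249.9 CPM with arecoline and 250.5 to 297 CPM with nicotine, ranges that just missed each other on the CPM scale and overlapped on the FPKM scale (log2 difference -0.18 ± 0.10, adjusted p = 0.358).

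Of the 16 nicotinic subunit genes listed, 10 passed the filter on low counts, and 0 of them passed the test in edgeR or in DESeq2, with 2 at an unadjusted p under 0.05. Their median log2 difference was 0.06, beside -0.01 over all genes tested, of which 7107 were above 0 and 7567 below. Chrna4 stood at 56.97, 39.1, 36.1 and 55.4 CPM with arecoline and at 48.7, 47.6, 43.6 and 62.1 CPM with nicotine, a log2 difference of -0.11 ± 0.22 (edgeR, adjusted p = 0.825). Chrnb2 differed by 0.22 ± 0.12 (adjusted p = 0.33) and Chrna7 by -0.52 ± 0.28 (adjusted p = 0.35). The groups overlapped for all 3 subunits of the main brain receptors. The muscle subunit Chrnb1 was the nicotinic gene whose groups did not overlap, at 0.170 to 0.266 CPM with arecoline and 0.309 to 1.93 CPM with nicotine, levels that rest on few reads. Chaperones and regulators of these receptors (8 genes, such as Ric3 and Lynx1) had 0 past the test in edgeR and in DESeq2, 1 at an unadjusted p under 0.05, and a median log2 difference of -0.03.

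Genes for making and packaging acetylcholine were high in the arecoline libraries in which striatal genes were high. Chat, the enzyme that makes acetylcholine, was at 0.331, 17.0, 23.9 and 0.105 CPM in arecoline replicates 1 to 4 and at 0.321 to 2.35 CPM with nicotine. The choline transporter gene Slc5a7 stood at 0.860, 12.4, 28.2 and 1.62 CPM against 1.28 to 3.23 CPM. In the arecoline group both genes were high in replicates 2 and 3, and replicates 1 and 4 lay within or below the nicotine range. Saline libraries held 4.91 to 24.3 CPM of Chat and 5.54 to 22.3 CPM of Slc5a7, highest in replicate 3, and all were above every nicotine library. Of the 9 genes of this list, 0 passed in edgeR or DESeq2, and 5 had an unadjusted p under 0.05 (18.2% of all genes tested). The median log2 difference of 0.95 became -1.10 without the 4 libraries that stood apart. Ache, acetylcholinesterase, stood at 62.7 to 127 CPM with arecoline and 46.8 to 90.0 CPM with nicotine (log2 difference 0.53, adjusted p = 0.312).

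**Figure D3:**
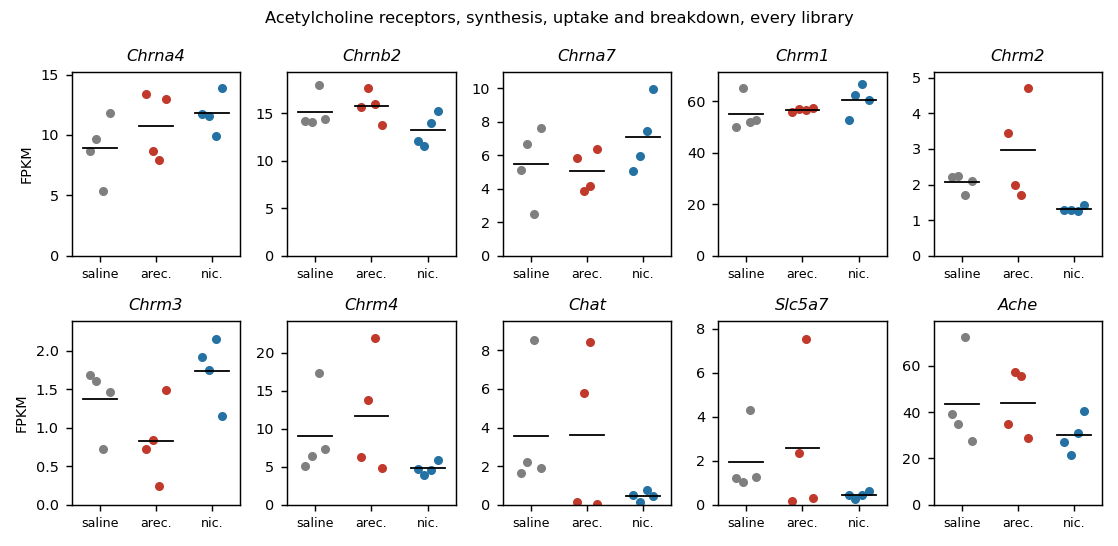
FPKM, the authors' values scaled to gene length and library total, for 10 genes of acetylcholine signalling, with 1 point per library for saline (grey), arecoline (red) and nicotine (blue) and a bar at each group mean. Chat, Slc5a7 and Chrm4 have 2 high arecoline libraries and 2 at the nicotine level, and Chrm2 has all 4 arecoline libraries above the nicotine libraries.

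Genes of neuroblasts and olfactory bulb interneurons, the young neurons of the rostral migratory stream and their descendants, were the list with a called member. Of its 11 genes, all had a log2 difference above 0, 1 passed (Dlx5), and the median was 1.58 beside -0.01 over all genes. Groups did not overlap for 6 of the 11, all in the higher direction, which holds for 3.93% of all genes tested, and 0.0204% of all genes were called higher. DESeq2 called 6 of the 11 higher, beside 219 of 14455 over all genes. The separation of Dlx1 was narrow, with 19.6 CPM in the lowest arecoline library and 19.4 CPM in the highest nicotine library. On the FPKM scale its groups overlapped. Dlx2, a partner of Dlx5 in GABAergic neurons, stood at 55.3, 17.1, 26.6 and 38.4 CPM with arecoline and at 8.06, 6.42, 10.6 and 13.9 CPM with nicotine (log2 difference 1.81 ± 0.37, adjusted p = 0.0565). Sox11, a factor of immature neurons, stood at 97.6, 45.8, 65.5 and 71.5 CPM against 31.8, 36.8, 27.2 and 26.7 CPM (1.20 ± 0.26, adjusted p = 0.0571). Neither passed, and in both the arecoline libraries were all above the nicotine libraries with replicate 1 the highest.

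A pair of patterns stood within this list. Sp8 and Dcx, markers of migrating neuroblasts, were highest in arecoline replicates 1 and 4. Sp8 stood at 30.2, 3.39, 3.06 and 27.9 CPM with arecoline and at 4.37, 6.85, 4.33 and 4.44 CPM with nicotine. Dcx stood at 83.6, 10.3, 21.8 and 45.7 CPM against 12.2, 17.8, 15.4 and 13.7 CPM, so arecoline replicate 3 was also above the nicotine range. Th, the rate-limiting enzyme of dopamine synthesis and also a marker of olfactory bulb interneurons, followed the same libraries at 78.5, 16.1, 13.8 and 44.9 CPM, though even its lowest arecoline library was above the nicotine range of 4.07 to 7.82 CPM (log2 difference 2.82 ± 0.61, adjusted p = 0.0571). Dlx6, the neighbour of Dlx5, was instead highest in arecoline replicates 2 and 3, at 5.23, 11.9, 13.97 and 4.96 CPM against 2.25 to 3.59 CPM, and antisense transcripts overlap it. Dlx5 was above the nicotine range in all 4 arecoline libraries, and its highest arecoline and saline libraries were the striatum-rich replicates 3 of those groups. Arecoline replicate 1, low in striatal genes, was above striatum-rich replicate 2 for Dlx5 (32.1 and 27.9 CPM). It was also the highest of its group for Sp8 and Dcx.

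The summed level of the 11 genes was 599 to 1095 CPM with arecoline, 501 to 628 CPM with nicotine and 565 to 668 CPM with saline, so the sums overlapped. Most of each sum was Tubb3, with means of 518 CPM with arecoline, 473 CPM with nicotine and 487 CPM with saline. Its log2 difference between the compounds was 0.13, so the sums say little of the other members. Without arecoline replicates 1 and 4 and nicotine replicate 2 the median was 0.48, 8 of the 11 genes were above 0 and 1 passed. Over all genes, 41 of 14974 passed in that setting. Without the 4 libraries that stood apart the median was 1.93, and 8 of 11 passed, beside 282 of 14897 over all genes. That setting keeps arecoline replicates 1 and 4, the highest of their group in this sum, so nothing is read from the larger median. Sp9 of this list is also in the list of indirect-pathway neurons. The part of other cells in the difference of Dlx5 was not tested.

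**Figure D4:**
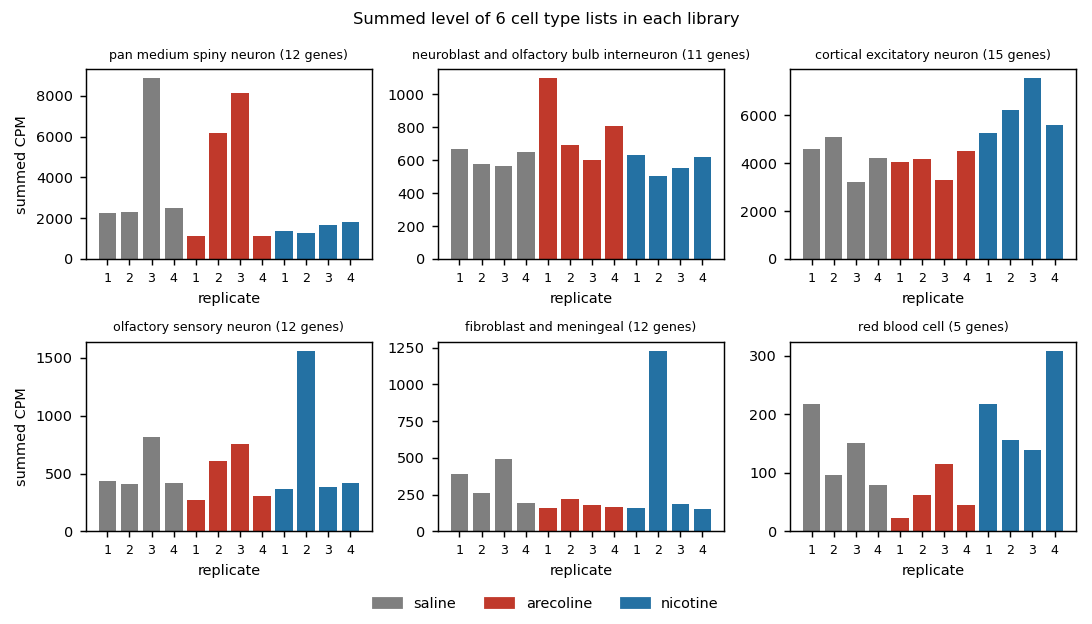
Bars give the summed CPM of 6 cell type lists in each saline (grey), arecoline (red) and nicotine (blue) library, by replicate number. Medium spiny neuron genes are highest in saline replicate 3 and arecoline replicates 2 and 3, and every saline library is above every nicotine library in them. Neuroblast genes are highest in arecoline replicates 1 and 4, and olfactory sensory and fibroblast genes in nicotine replicate 2. Red blood cell and cortical genes are higher in every nicotine than in every arecoline library. The neuroblast sum is mostly Tubb3.

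Medium spiny neuron genes had positive medians that rested on 2 libraries. All 12 genes of the list shared by direct-pathway and indirect-pathway medium spiny neurons were above 0, with a median log2 difference of 1.53. In edgeR 0 passed and 9 had an unadjusted p under 0.05 (18.2% of all genes tested). DESeq2 called 1 (606 of 14455 over all genes, in either direction). The summed level of the 12 genes was 1120.2, 6173, 8119.6 and 1140.1 CPM in arecoline replicates 1 to 4 and 1298 to 1822 CPM with nicotine. Saline libraries held 2274, 2300, 8852 and 2504 CPM, all above every nicotine library and above arecoline replicates 1 and 4. Without the 4 libraries that stood apart the median was -0.58. The cholinergic interneuron list likewise went from 2.31 to -1.52. Olfactory sensory neuron genes (median -2.94) and fibroblast genes (-1.66) took their sign from nicotine replicate 2, in which the fibroblast list summed to 1229 CPM against 153 to 189 CPM in the other nicotine libraries. Without that library the medians were 0.83 and 0.31.

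Red blood cell genes had a lower summed level in every arecoline library than in every nicotine library. The 5 genes tested had a median log2 difference of -1.61, and 4 had groups that did not overlap in the lower direction (5.04% of all genes tested). In edgeR 0 passed and 4 had an unadjusted p under 0.05 (18.2% of all genes tested), and DESeq2 called 3 lower (387 of 14455 over all genes). Their summed level was 23.0, 62.8, 115 and 45.6 CPM with arecoline and 218, 155, 139.7 and 308 CPM with nicotine. Hbb-bt, an adult beta globin gene, stood at 1.65, 3.45, 5.855 and 2.82 CPM against 16.6, 11.5, 7.12 and 26.8 CPM (log2 difference -2.17 ± 0.46, adjusted p = 0.0571). Globin genes share reads with their near-identical copies, so their single values depend on how the counting divided them. Without the 4 libraries that stood apart the median was -2.60 and 4 of 6 passed, beside 282 of 14897 over all genes. That setting keeps arecoline replicates 1 and 4, the lowest of their group in this sum, so nothing is read from the larger difference. Saline libraries (79.4 to 217 CPM) overlapped both groups.

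Synaptic vesicle and cortical neuron genes had medians below 0. Of 26 genes of vesicle release, 20 were below 0, 8 had groups that did not overlap, all in the lower direction (5.04% of all genes tested), and the median log2 difference was -0.19. In edgeR 0 passed, 13 had an unadjusted p under 0.05 (18.2% of all genes tested), and DESeq2 called 3 lower (387 of 14455 over all genes). Syn2, synapsin II, which tethers vesicles, stood at 146, 202, 140.1 and 169.8 CPM with arecoline and at 364, 413, 312 and 239 CPM with nicotine (log2 difference -1.01 ± 0.21, adjusted p = 0.0565). Bsn, the active zone scaffold bassoon, stood at 125 to 160.1 CPM against 164 to 274 CPM (-0.56 ± 0.16, adjusted p = 0.0968). Neither passed, and neither group pair overlapped.

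Of 15 cortical excitatory neuron genes, 13 were below 0, and the median was -0.44. Groups did not overlap for 6, all in the lower direction (5.04% of all genes tested). In edgeR 0 passed and 6 had an unadjusted p under 0.05 (18.2% of all genes tested), and DESeq2 called 3 lower (387 of 14455 over all genes). Camk2a, the abundant kinase of excitatory synapses, stood at 3139, 3410, 2689 and 3533 CPM with arecoline and at 4039, 5172, 6188 and 4520 CPM with nicotine (log2 difference -0.64 ± 0.14, adjusted p = 0.0626). Tbr1, a factor of deep-layer cortical neurons, stood at 18.7, 27.8, 7.05 and 34.4 CPM against 74.1, 91.8, 56.7 and 37.1 CPM (-1.55 ± 0.50, adjusted p = 0.134). The summed level of the list was 3281 to 4502 CPM with arecoline, 5236 to 7533 CPM with nicotine and 3192 to 5072 CPM with saline, and the first 2 ranges did not overlap. The part of cortical tissue in the lower genes was not tested.

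**Figure D5:**
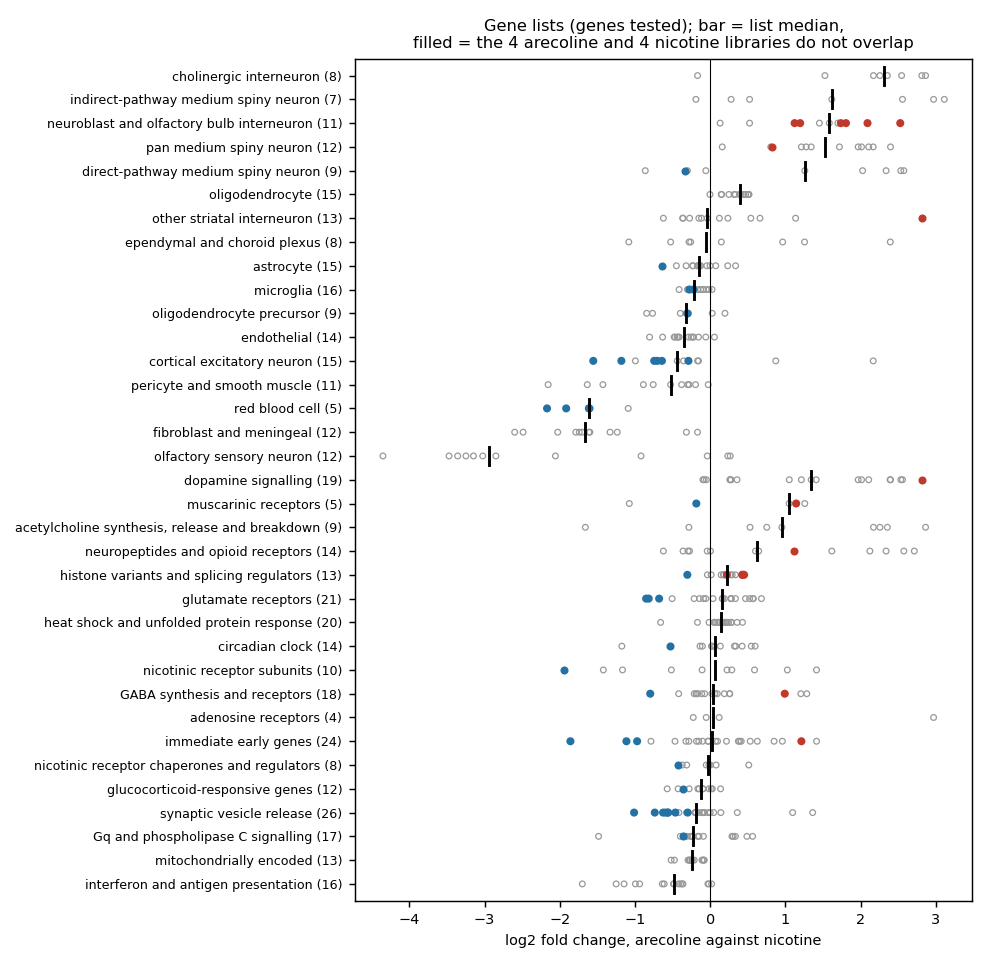
Points are the genes of 35 lists by their log2 fold change of arecoline against nicotine, filled where the 4 arecoline and 4 nicotine libraries do not overlap (red higher, blue lower), with a bar at each list's median and the number of genes tested in brackets. The neuroblast list has 6 filled points to the right, and the synaptic vesicle, cortical and red blood cell lists have 8, 6 and 4 to the left.

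Activity-regulated genes were split. Of 24 immediate early genes, 12 were above and 12 below 0, and the median log2 difference was 0.02. In edgeR 0 passed and 10 had an unadjusted p under 0.05 (18.2% of all genes tested), and DESeq2 called 2 lower (387 of 14455 over all genes). Fos, the AP-1 factor, stood at 46.2, 62.3, 70.2 and 83.4 CPM with arecoline and at 27.0, 41.4, 54.3 and 46.9 CPM with nicotine (0.63 ± 0.26, adjusted p = 0.217). Arc, a synaptic immediate early protein, stood at 154, 245, 286 and 263 CPM against 96.7, 85.1, 161 and 143 CPM (0.96 ± 0.31, adjusted p = 0.135). Both had higher means with arecoline, and the groups overlapped through arecoline replicate 1. Npas4, a factor induced by calcium entry, had non-overlapping groups in the same direction, at 6.52 to 10.4 CPM against 2.62 to 5.73 CPM (1.21 ± 0.47, adjusted p = 0.20). Egr4, a zinc finger factor, had them in the opposite direction, at 4.50, 16.01, 5.26 and 14.7 CPM against 40.2, 52.2, 35.2 and 20.4 CPM (-1.86 ± 0.48, adjusted p = 0.0768). Nptx2, a secreted pentraxin of excitatory synapses, was at 14.2 to 36.8 CPM against 49.1 to 66.8 CPM (-1.11 ± 0.34, adjusted p = 0.122).

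Among 13 genes of histone variants and splicing regulators, 11 were above 0, with a median log2 difference of 0.22. Groups did not overlap for 4 in the higher direction (3.93% of all genes tested) and for 1 in the lower direction, Rbm3 (5.04%). In edgeR 0 passed, 6 had an unadjusted p under 0.05 (18.2% of all genes tested) and DESeq2 called 3 higher (219 of 14455 over all genes). Rsrp1, an arginine and serine rich protein, stood at 314, 303, 329.7 and 275 CPM with arecoline and at 212, 236, 233 and 225 CPM with nicotine (0.43 ± 0.11, adjusted p = 0.0679). Saline libraries held 172 to 198 CPM, below both compounds. H2afx, the histone that marks DNA breaks when phosphorylated, stood at 74.1, 77.5, 73.5 and 64.0 CPM against 62.1, 59.4, 63.9 and 62.3 CPM (0.22 ± 0.10, adjusted p = 0.233), with saline at 41.4 to 52.0 CPM. For both genes the order was saline, nicotine, arecoline, and the step from nicotine to arecoline did not pass. Against the shared saline libraries both passed with arecoline (edgeR, log2 fold change 0.70 for Rsrp1 and 0.67 for H2afx, adjusted p = 0.0394 each). Neither passed with nicotine (edgeR, 0.27 with adjusted p = 0.338 and 0.45 with adjusted p = 0.164).

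No chaperone gene passed the test. Of 20 genes of the heat shock and unfolded protein response, 17 were above 0, 0 passed in edgeR or DESeq2, 6 had an unadjusted p under 0.05, and the median log2 difference was 0.14. Hspa5, the chaperone of the endoplasmic reticulum, stood at 379.6, 389.7, 426 and 473 CPM with arecoline and at 401, 268, 307 and 325 CPM with nicotine (0.36 ± 0.12, adjusted p = 0.153), with nicotine replicate 1 inside the arecoline range. Hspa1a, which shares reads with its copy Hspa1b, differed by -0.17 ± 0.21 (adjusted p = 0.705).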

How the data were processed

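Polyadenylated RNA of mouse nucleus accumbens was sequenced in 16 libraries. Per the labels' protocols, cDNA was primed with oligo-dT, extended by template switching and amplified by PCR, with no molecular identifiers mentioned. The submitters' processing notes list RSEM, StringTie 1.3.1, HISAT2, Bowtie2 2.2.8 and fastp 0.18.0 on mm10, with no role or order. The sources used here do not name the annotation behind the counts. Per the file headers, the deposited table holds an estimated count and an FPKM value per gene and library. FPKM was computed by the authors, and the estimated counts as deposited were not scaled for depth.

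Identifiers were matched to GENCODE M21 (22232 of 22337, 105 unmatched). The estimated counts, rounded, went into edgeR 4.0.16 (R 4.3.3) with filterByExpr (14674 genes kept), TMM factors and quasi-likelihood fits of group means over all 16 libraries, so that caffeine and saline libraries help to estimate the spread. Benjamini-Hochberg adjustment was applied at 0.05, whatever the fold. Levels are TMM-scaled CPM, and 1 CPM is between 9.04 and 19.0 counts in the 8 libraries. FPKM served to compare levels between genes and for limma 3.58.1 as an alternative, and DESeq2 1.42.0 was another. Libraries of a group differed by a chi-square per degree of freedom of at least 11.7, so none was taken as a duplicate.

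Named genes were those past the threshold, the next smallest p up to 10 in a direction, and fixed receptor and marker genes. A further set (among them the Dlx genes other than Dlx5, Sox11, Sp8, Dcx, Th, the globin genes, Syn2, Bsn, Camk2a, Tbr1, Npas4, Egr4 and Nptx2, and the genes under other observations) was named after its values were seen. The comparison, the 35 gene lists (440 of 442 genes in the table) and the tests were chosen with earlier results of these data known, and no list was tested.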

Additional observations from a re-analysis of the deposited data

Results flagged for a closer look

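In 148 groups of 4 libraries, for the named genes with arecoline or nicotine, 8 values stood apart from the other 3 of their group by more than Dixon's 95% limit on the gap over the range, where chance gives about 1 in 20. Of these, 4 were in nicotine replicate 2. Omp, which marks olfactory sensory neurons, was at 336.8 CPM there against 0.2475 to 4.572 CPM in the other nicotine libraries. Bche, butyrylcholinesterase, was at 30.62 CPM there against 0.9794 to 2.599 CPM. Synpr was lowest there at 47.43 CPM against 70.36 to 73.76 CPM, and Sp8 was highest there at 6.852 CPM against 4.332 to 4.437 CPM. In nicotine replicate 1, Acap3 was highest at 181.4 CPM against 152.6 to 155.9 CPM, and Slc18a3, the vesicular acetylcholine transporter, was highest at 2.938 CPM against 0.5353 to 0.9413 CPM. Chrna3 was lowest in nicotine replicate 3 at 0.495 CPM against 0.8565 to 0.9041 CPM. In arecoline replicate 1, Zar1 was highest at 2.515 CPM against 1.397 to 1.515 CPM.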

How the results depend on the processing

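All 13 genes past the threshold kept their direction under all 27 alternatives, and 19 of the other 61 named genes changed sign in at least 1. The groups of the 13 genes do not overlap, so leaving out libraries could hardly change their direction. The contrast with the other named genes is therefore no measure of stability. The counts of genes past the threshold were less stable. Main values were 3 higher and 10 lower with arecoline. Relative log expression factors gave 3 and 11, no filter on low counts 3 and 10, and FPKM with limma 3 and 7 at a pseudocount of 1, but 16 and 33 at a pseudocount of 0.1. With limma on FPKM and no filter, 1 was higher and 0 lower, with 2777 at an unadjusted p under 0.05. DESeq2 gave 219 and 387, only the 8 arecoline and nicotine libraries 1 and 2, and a covariate for the level of medium spiny neuron genes 51 and 66. Leaving out the 4 libraries that stood apart gave 130 and 152. Leaving out arecoline replicates 1 and 4 and nicotine replicate 2 gave 27 and 14, with 4 of the 13 genes among them. Leaving out each library in turn gave from 1 to 85 higher and from 1 to 213 lower. The cause of these shifts was not tested. The alternatives without a saline or caffeine library, without the 3 libraries just named and on unfiltered FPKM were chosen after seeing the data.

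With the replicate number as a block, 62 genes were higher and 157 lower, all 13 among them. Same-numbered arecoline and nicotine libraries had correlations of 0.0694, 0.187, 0.141 and -0.00281 between their deviations from the group means. Arecoline replicates 2 and 3 correlated best with the nicotine library of their own number. Arecoline replicate 1 correlated best with nicotine replicate 4 (0.0757), and arecoline replicate 4 with nicotine replicate 1 (0.115). The main fit did not use the numbers, and whether they pair the libraries is not known. At the lowest total, 9.038 M in nicotine replicate 2, 1 CPM is 9.04 counts, which limits what can be said of Zar1, Chrna3, Chrnb1 and Slc18a3.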

Other observations

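Of 21 glutamate receptor genes, 3 had groups that did not overlap, and of 18 genes of GABA synthesis and receptors 2, beside 8.97% of all genes tested, so nothing is read from these counts. None of either list passed in edgeR, with 6 and 5 at an unadjusted p under 0.05. DESeq2 called 2 glutamate receptor genes lower, and 1 gene of the GABA list higher and 1 lower. Over all 14455 genes it called 219 higher and 387 lower. Gad1, which makes GABA, stood at 611 ± 67.6 CPM with arecoline and 307 ± 58.7 CPM with nicotine (SD, n = 4 each), a log2 difference of 0.99 ± 0.21 (SE; edgeR, adjusted p = 0.0571). Gabbr2, a subunit of the GABA-B receptor, stood at 55.3 ± 15.6 and 96.1 ± 6.80 CPM (-0.80 ± 0.22, adjusted p = 0.0983). The NMDA receptor subunit Grin3a stood at 54.1 ± 19.5 and 97.7 ± 5.14 CPM (-0.85 ± 0.23, adjusted p = 0.0932), and the kainate receptor subunit Grik5 at 9.13 ± 1.62 and 16.1 ± 1.47 CPM (-0.82 ± 0.21, adjusted p = 0.0797).

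By the pathway annotation deposited with the table, looked up after seeing the data, 1 of 105 tested genes of the cholinergic synapse passed, Adcy9, and the median log2 difference was -0.11, with 2 genes higher and 10 lower without overlap, beside 3.93% and 5.04% of all genes tested. The counts were 0 and 4 of 33 genes annotated to nicotine addiction, 1 and 12 of 127 for the dopaminergic synapse and 2 and 13 of 172 for calcium signalling. Across 14659 genes, which are not independent replicates, the log2 difference had a Spearman correlation of 0.000899 with the span of the gene, 0.0298 with exonic length and -0.131 with the share of G and C, in libraries amplified by PCR. The 10 called lower genes had a median span of 100376 bases and the 3 called higher 5452 bases, against 25161 bases over all genes. These are medians of few genes, and members go both ways. Hs3st5, called higher, is longer than the median of the lower genes. Plpp6, Clcn2 and Acap3, called lower, are shorter than the median over all genes, so nothing is read from these medians.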
